A study of Mus musculus with 14 samples.

Results

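The domains described here are the broad stretches of H3K4me3 at named genes in mouse cerebral cortex. A domain was counted as broad when its region had values, carried a gene name and spanned at least 3000 bp on build mm9. By this rule 327 of 14881 regions with values were members, which is 2.87% of the 11388 regions that carry a gene name. They lie at 327 different genes, since no gene had 2 of them. The rule did not use the level of the mark or its response to nicotine. The choice by width is still not independent of level. Among narrower named regions the log2 saccharin level per region and the log2 width had a Pearson r of 0.782 (postnatal) and 0.797 (pre- and postnatal). How the edges of the regions were drawn is not given in the sources used here.

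H3K4me3 was measured by ChIP-seq with an antibody to histone H3 trimethylated at lysine 4, in C57BL/6J mice at the age of 3 months, using tissue of the cerebral cortex. The groups were postnatal nicotine (4 libraries), postnatal saccharin (4 libraries), pre- and postnatal nicotine (3 libraries) and pre- and postnatal saccharin (3 libraries), with saccharin solution as the control of each exposure. The treatment text is shared by all samples and describes solutions given to dams from conception, taken away at day 21, with rest until day 90, so the postnatal-only course is known from the group names alone. Libraries 1 and 2, and libraries 3 and 4, of each postnatal group differed by about the counting noise (variance 1.01 to 1.08 times that of counting, against 2.21 to 2.71 times for the other pairs of a group). These pairs were treated as 1 sample each by taking their mean, which left 2 nicotine and 2 saccharin samples after postnatal exposure and 3 and 3 after pre- and postnatal exposure. The labels do not say whether samples came from separate animals, so p-values measure the spread between these samples. The cortex holds many cell types, and in bulk tissue fewer cells with the mark and less mark per cell cannot be told apart.

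Trimethylation of lysine 4 of histone H3 is laid down at active and poised promoters by the SET1 and MLL families of methyltransferases, which are drawn to unmethylated CpG-rich DNA by proteins with CXXC domains. At most promoters the mark forms a compact peak over the nucleosomes flanking the start site. At a small number it spreads over several kilobases, and such broad domains have been described at genes that define the identity and function of a cell type, in brain at genes of neuronal identity and synaptic function. Developmental nicotine acts through nicotinic acetylcholine receptors, ligand-gated cation channels that are present on cortical neurons.

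Promoter sequence is shown for 5 of the domains, chosen to set 2 of the strongest domains per kb beside an activity-regulated gene and beside 2 of the weakest domains per kb. The lines give 250 bases upstream of the annotated start, 5′ to 3′ on the coding strand, from RefSeq on GRCm38.p6, with every CpG dinucleotide in capitals. Cdk13 encodes a kinase of RNA polymerase II (chr13:17805098-17805347, minus strand), Yy1 a zinc finger transcription factor (chr12:108793047-108793296, plus strand) and Nr4a2 an orphan nuclear receptor induced by neuronal activity (chr2:57124004-57124253, minus strand). Cacna1e encodes the pore subunit of the R-type calcium channel (chr1:154725921-154726170, minus strand) and Eef1a2 the translation elongation factor form of neurons and muscle (chr2:181157016-181157265, minus strand).
Cdk13: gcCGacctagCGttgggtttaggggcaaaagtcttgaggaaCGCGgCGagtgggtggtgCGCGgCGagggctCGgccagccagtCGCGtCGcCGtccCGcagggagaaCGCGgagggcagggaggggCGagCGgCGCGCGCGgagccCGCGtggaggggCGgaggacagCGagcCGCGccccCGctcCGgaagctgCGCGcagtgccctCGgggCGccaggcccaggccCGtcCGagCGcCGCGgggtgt
Yy1: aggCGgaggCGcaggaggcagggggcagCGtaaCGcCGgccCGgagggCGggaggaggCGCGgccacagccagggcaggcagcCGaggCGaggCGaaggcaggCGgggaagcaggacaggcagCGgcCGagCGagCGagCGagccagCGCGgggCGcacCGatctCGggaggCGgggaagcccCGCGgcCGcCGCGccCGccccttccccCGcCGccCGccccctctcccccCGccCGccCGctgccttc
Nr4a2: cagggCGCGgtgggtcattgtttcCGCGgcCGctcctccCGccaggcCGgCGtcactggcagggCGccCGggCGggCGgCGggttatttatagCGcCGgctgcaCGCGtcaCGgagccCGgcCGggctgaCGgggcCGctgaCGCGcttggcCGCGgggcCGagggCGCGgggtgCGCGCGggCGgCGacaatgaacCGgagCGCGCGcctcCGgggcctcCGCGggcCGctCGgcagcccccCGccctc
Cacna1e: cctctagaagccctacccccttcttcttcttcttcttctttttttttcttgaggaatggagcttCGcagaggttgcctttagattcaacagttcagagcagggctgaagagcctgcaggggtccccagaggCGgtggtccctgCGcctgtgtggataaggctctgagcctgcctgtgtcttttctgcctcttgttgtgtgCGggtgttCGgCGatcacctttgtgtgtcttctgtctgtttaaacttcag
Eef1a2: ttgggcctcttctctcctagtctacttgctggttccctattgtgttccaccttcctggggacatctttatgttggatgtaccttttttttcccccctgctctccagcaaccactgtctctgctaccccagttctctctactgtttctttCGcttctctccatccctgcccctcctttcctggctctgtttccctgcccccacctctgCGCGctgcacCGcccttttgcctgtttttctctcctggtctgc

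The stretches upstream of Cdk13, Yy1 and Nr4a2 held 39, 36 and 44 CpG, and those upstream of Cacna1e and Eef1a2 held 6 and 4. The start sites and the domains come from different builds and were matched by gene name only, so where a start lies within its domain was not analysed here.

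Member domains were 3000 to 4575 bp wide, with a median of 3294 bp, against a median of 1583 bp over all regions with values. 233 of them spanned 3000 to under 3500 bp, 73 spanned 3500 to under 4000 bp and 21 were 4000 bp or wider. The widest domain lay at Irf2bp2, which encodes a transcriptional corepressor of the IRF2-binding family (chromosome 8, 129114736 to 129119311 on mm9). It was followed by the domain of 4440 bp at Spred1, an inhibitor of Ras signalling, that of 4382 bp at Cpeb2, a regulator of mRNA translation, and that of 4347 bp at Igf1r, the receptor of insulin-like growth factor 1. The domain at Nrxn2, a presynaptic adhesion protein, spanned 4339 bp, that at Phf12, a subunit of the Sin3 corepressor, 4298 bp, and that at Lingo1, a neuronal membrane protein that limits axon growth and myelination, 4273 bp. Gnao1, the most abundant G protein alpha subunit of brain, had 4268 bp, Nol4 4226 bp and Tmem121b 4198 bp. At the edge of the rule stood Pkp4 with 3000 bp, Brinp1 with 3002 bp and Sinhcaf with 3006 bp on the inside, and Shoc2 with 2998 bp, Rnf165 with 2997 bp and Noa1 with 2995 bp on the outside. Levels on both sides of the edge overlapped, with postnatal saccharin means of 487, 119 and 201 adjusted reads inside, in the order given, and 350.4, 119 and 289 adjusted reads outside.

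All levels are read counts per region as adjusted by the authors with edgeR, and levels of different genes are compared per kb of region. Along the scale of width, the level per kb climbed up to about 2000 bp and then levelled off, so that broad domains were no denser than regions of intermediate width. Averaged over samples, the median level of the 327 broad domains was 90.3 ± 2.85 adjusted reads per kb in the postnatal table (SD, n = 4 samples, both treatments), against 54.6 ± 1.59 for the 11061 narrower named regions. Every sample had the higher median in the broad domains, a mean log2 ratio of 0.72 (exact two-sided paired permutation p = 0.125, the smallest that 4 samples allow). In the pre- and postnatal table the values were 53.4 ± 1.26 against 34.8 ± 0.89 adjusted reads per kb (SD, n = 6 samples), a mean log2 ratio of 0.62, again higher in every sample (exact two-sided paired permutation p = 0.0312, the smallest that 6 samples allow). Since the choice by width is not independent of level, these p-values do not test level apart from width. The 2595 named regions of 2000 to under 3000 bp had levels close to those of the broad domains. They held 90.9 ± 3.05 and 53.8 ± 1.79 adjusted reads per kb in the postnatal and the pre- and postnatal table, a mean log2 ratio of -0.01 in both (exact two-sided paired permutation p = 0.25 and p = 0.594).

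**Figure D1:**
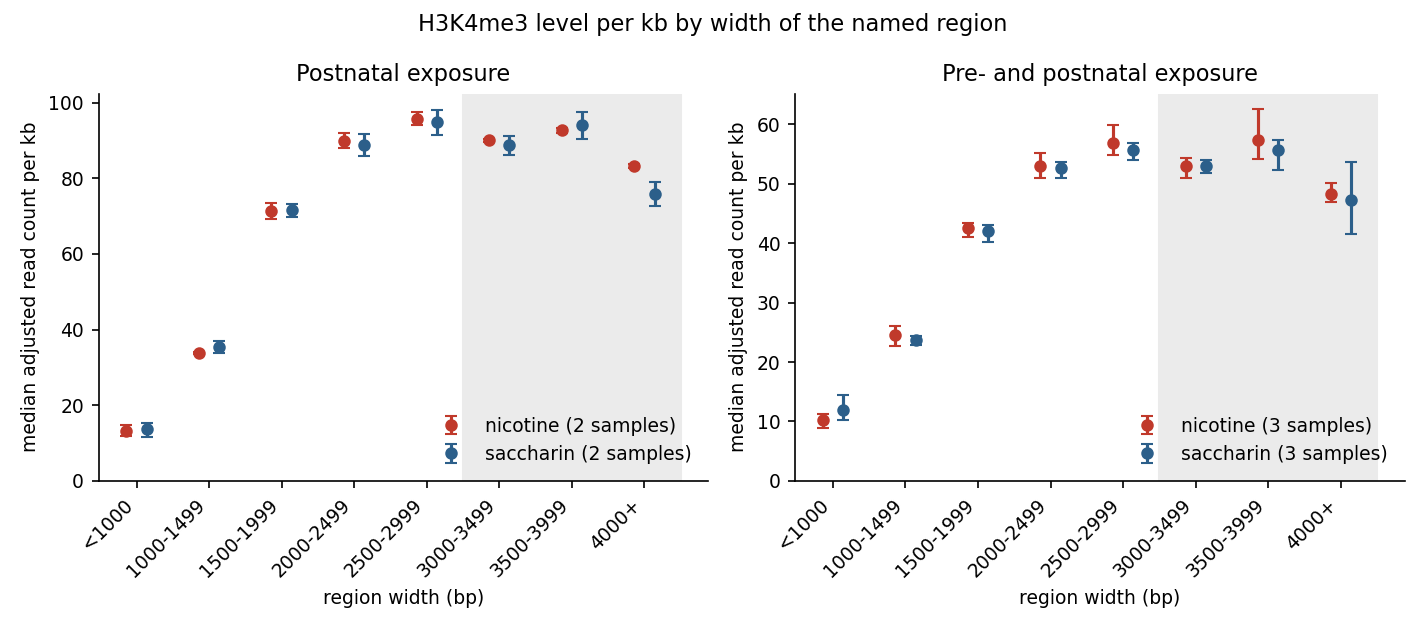
Median H3K4me3 level (adjusted read count per kb) of named regions by width class (bp), for nicotine and saccharin samples of each exposure; points are means over samples of the median, bars run from the lowest to the highest sample, and the shaded classes are the broad domains. The saccharin medians climb to 88.8 (postnatal) and 52.7 (pre- and postnatal) at 2000 to under 2500 bp and stand at 88.7 and 53.0 at 3000 to under 3500 bp.

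By class, the postnatal median was 90.0 ± 0.723 adjusted reads per kb in nicotine samples and 88.7 ± 3.66 in saccharin samples for domains of 3000 to under 3500 bp (SD, n = 2 each). For domains of 3500 to under 4000 bp it was 92.8 ± 0.883 in nicotine samples and 94.0 ± 5.11 in saccharin samples, and for the 21 domains of 4000 bp or more 83.3 ± 0.691 in nicotine samples and 75.9 ± 4.58 in saccharin samples. None of these classes was tested between treatments. Across the 327 domains, described without a test since all share the same libraries, the level per kb and the width had a Pearson r of 0.0744 in the postnatal and 0.0663 in the pre- and postnatal saccharin samples. Across the 11061 narrower named regions the same r was 0.615 and 0.596.

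The domains differed widely among themselves. In postnatal saccharin samples the level ran from 17.3 to 265 adjusted reads per kb, with a median of 88.4 and a middle range of 61.6 to 127, so the strongest domain was 15.3-fold above the weakest per kb. Pre- and postnatal saccharin samples ran from 19.8 to 160.0 adjusted reads per kb, with a median of 52.4. The order of the domains was alike in both tables, which were adjusted separately: across the 327 domains the saccharin levels had a Pearson r of 0.958 and a Spearman rho of 0.967, and 15 of the 20 strongest were shared. Of the 50 named regions with the most adjusted reads per region, 29 in the postnatal and 28 in the pre- and postnatal saccharin samples were broad domains, a count that a greater width alone favours.

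Strongest per region was Cpeb2, a cytoplasmic polyadenylation element binding protein, whose domain lies on chromosome 5 (43623486 to 43627868, mm9). It held 1124 and 1101 adjusted reads in the 2 postnatal nicotine samples, against 1141 and 1023 in the 2 saccharin samples. After pre- and postnatal exposure it held 684, 517 and 486 adjusted reads in nicotine samples, against 564, 606 and 572 in saccharin samples. The groups overlapped in both exposures. Strongest per kb was Cdk13 (chromosome 13, 17894545 to 17898002, mm9), with 1006 and 1027 adjusted reads in postnatal nicotine samples, against 964 and 869 in saccharin samples. In the pre- and postnatal table Cdk13 held 774, 444 and 458 adjusted reads in nicotine samples, against 552, 581 and 526 in saccharin samples. Both postnatal nicotine values were above both saccharin values, while after pre- and postnatal exposure nicotine sample 1 stood far above and the other 2 below all saccharin samples. Per kb, Cdk13 averaged 294 adjusted reads in postnatal nicotine samples and 265 in saccharin samples, and Cpeb2 254 in nicotine samples and 247 in saccharin samples.

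Besides Cpeb2 and Cdk13, the 10 domains with the highest level per region over both tables were those at Irf2bp2, Arid1b, Yy1, Zswim6, Klf13, Arid1a, Phf13 and Ncoa2. Yy1 (chromosome 12, 110030014 to 110033563, mm9) held 856 and 847 adjusted reads in postnatal nicotine samples, against 838 and 772 in saccharin samples. Klf13, a Krüppel-like zinc finger repressor, averaged 267 adjusted reads per kb in postnatal nicotine samples and 242 in saccharin samples. In postnatal nicotine samples Ncoa2, a nuclear receptor coactivator, averaged 237 adjusted reads per kb, Zswim6 224, Arid1b, a DNA-binding part of the BAF remodeller, 221, Phf13, a reader of H3K4me3, 211, Irf2bp2 194 and Arid1a, the paralog of Arid1b in BAF, 190.2. In postnatal saccharin samples they averaged 216 (Ncoa2), 217 (Zswim6), 209 (Arid1b), 202 (Phf13), 193 (Irf2bp2) and 174 (Arid1a) adjusted reads per kb. In the pre- and postnatal table the nicotine means were 149.9 adjusted reads per kb for Yy1, 133 for Arid1b, 113 for Irf2bp2 and 96.0 for Arid1a, against saccharin means of 147, 124.5, 109 and 91.7. The nicotine mean was the higher one in each pair of values given in this paragraph so far, and none of these differences passed the test. In the pre- and postnatal table these pairs cover only Yy1, Arid1b, Irf2bp2 and Arid1a. Pre- and postnatal means of Zswim6, Klf13, Phf13 and Ncoa2 are not given here. At Cpeb2 the nicotine mean was the lower one in that table (562 against 581 adjusted reads). Of the 82 members with the highest level per kb there, 50 had a log2 difference above 0 and 32 below. On the log2 scale the postnatal difference was 0.14 ± 0.12 (SE) at Ncoa2 and 0.13 ± 0.12 at Arid1a. It was smaller than its SE at Zswim6, Arid1b, Phf13 and Irf2bp2, and those of Klf13 and Yy1 are not given here. A difference of about 1 SE does not set a gene apart. Over all tested regions with 129 to 280 adjusted reads per kb the median postnatal log2 difference was 0.08.

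At the other end stood broad domains with a low level. Btbd3, a BTB domain protein that orients dendrites in cortex (chromosome 2, 138103282 to 138106564, mm9), held 66.4 and 62.1 adjusted reads in postnatal nicotine samples, against 39.2 and 74.2 in saccharin samples. After pre- and postnatal exposure it held 37.7, 71.6 and 116.9 adjusted reads in nicotine samples, against 60.4, 81.6 and 61.4 in saccharin samples. The groups overlapped at Btbd3, and its samples within a group lay far apart. Cacna1e held 96.9 and 59.8 adjusted reads in postnatal nicotine samples, against 61.1 and 87.3 in saccharin samples, with overlapping groups. To rank members by level, each library was scaled to its median region and the 14 libraries were averaged, so averaged postnatal pairs counted as 2 libraries. The 10 members with the lowest level per kb by this rank averaged between 19.6 and 31.5 adjusted reads per kb in postnatal nicotine samples. In postnatal saccharin samples they averaged between 17.3 and 36.4. Besides Btbd3, Cacna1e and Eef1a2 these were Hecw1, a neuronal ubiquitin ligase, Pde2a, a cyclic nucleotide phosphodiesterase, and Rarg, a retinoic acid receptor. Mbnl2, a splicing regulator, Plxdc2, Fgf14, a modulator of sodium channels at the axon initial segment, and Chrm4, the M4 muscarinic acetylcholine receptor, completed the set.

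**Figure D2:**
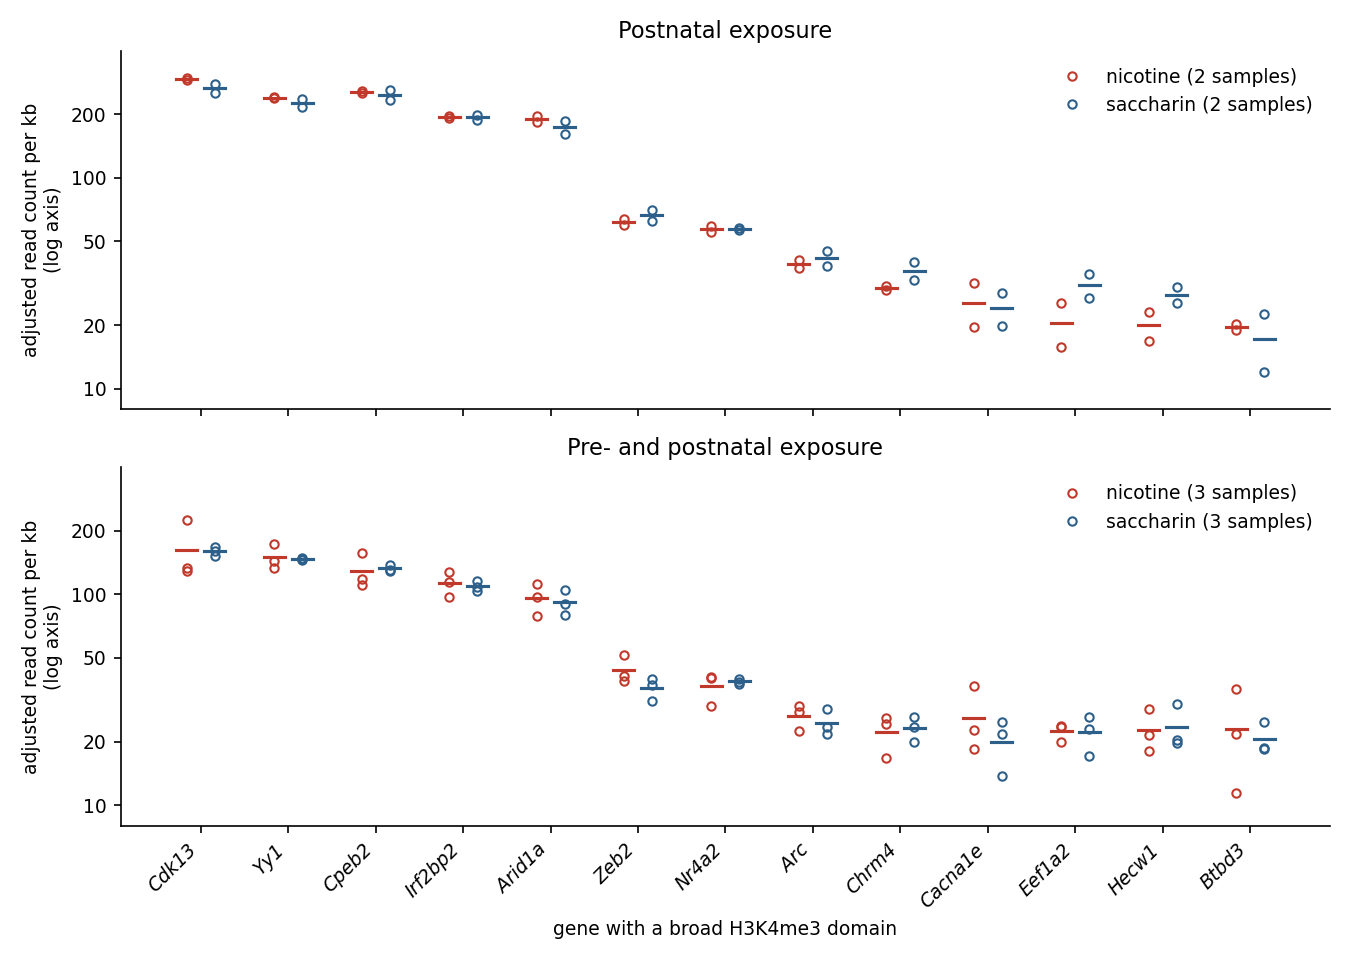
H3K4me3 level (adjusted read count per kb, log axis) of 13 broad domains in each sample of both exposures; open circles are samples and short bars the group means, nicotine left of saccharin. Postnatal means run from 294 (nicotine) and 265 (saccharin) at Cdk13 to 19.6 (nicotine) and 17.3 (saccharin) at Btbd3, and the samples of a group lie farther apart at the weak domains.

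The lists used below were chosen with earlier results of these data known, so their counts are descriptions and no list was tested. The share of genes with a broad domain differed between the lists. Of activity-regulated genes, which neurons switch on when they fire, 8 of the 28 with a region had a broad domain (28.6%, against 2.87% of all named regions): Nr4a2, Klf6, Vgf, Arc, Homer1, Egr1, Egr4 and Dusp4. Among transcription factors of cortical neurons 6 of 37 were broad (16.2%), among them Zeb2, Cux1 and Neurod2. Voltage-gated ion channels had 7 of 36 (19.4%), among them Cacna1c, Kcnma1, Scn8a and Cacna1e. That list also holds leak and inwardly rectifying potassium channels, and the leak channel Kcnk1 is among its 7. Signalling kinases and phosphatases had 7 of 37 (18.9%), chromatin regulators 7 of 51 (13.7%), neuronal RNA-binding and translation regulators 5 of 39 (12.8%) and postsynaptic genes 5 of 44 (11.4%). Despite its name, the RNA-binding list is not limited to genes of neurons, and Qk is among its 5. Synaptic release genes had 1 of 37 (2.7%), the domain at Nrxn2, which is close to the share of all named regions.

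**Figure D3:**
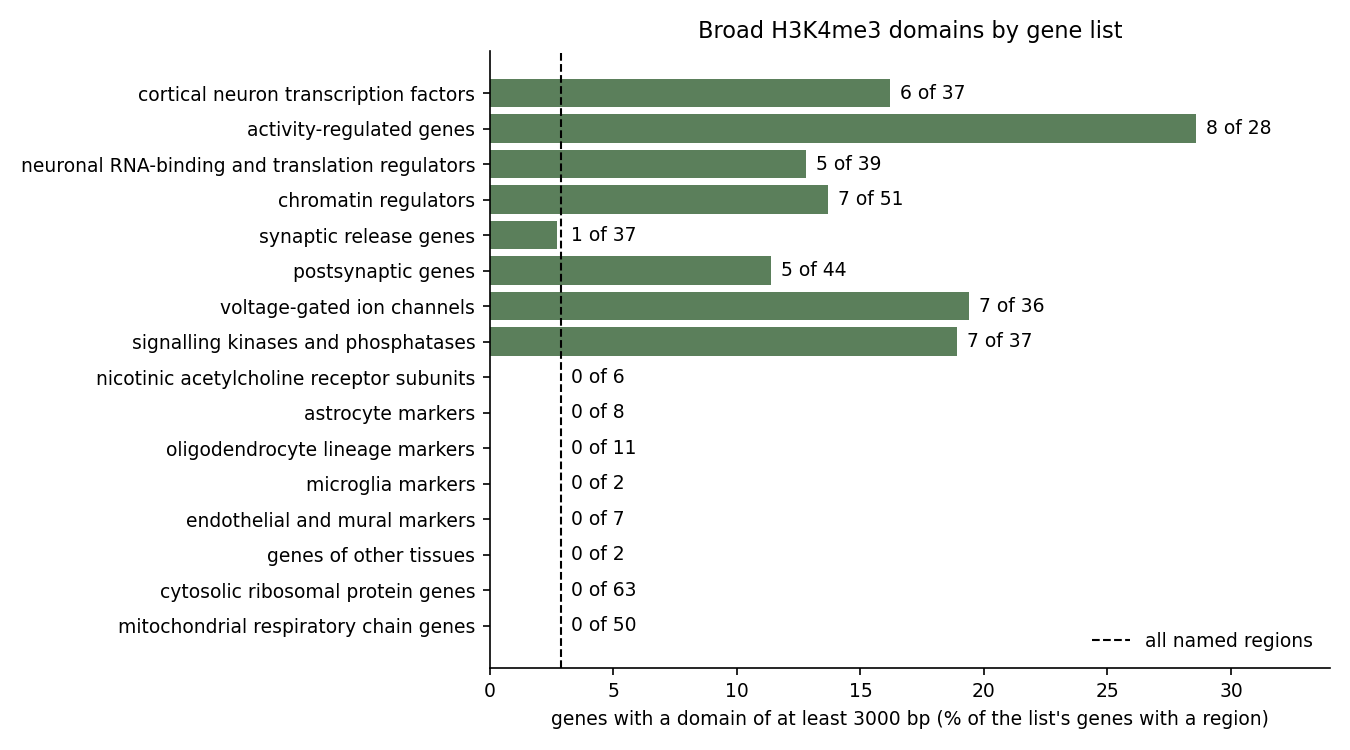
Share of each gene list's genes with a region whose H3K4me3 domain spans at least 3000 bp (percent), with the counts beside the bars and a dashed line at the share over all named regions. The lists with any broad domain run from 2.7% (synaptic release genes) to 28.6% (activity-regulated genes), and the other 8 are at 0.

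No broad domain was found at the 63 cytosolic ribosomal protein genes with a region, nor at the 50 mitochondrial respiratory chain genes, of which the widest was Sdhd with 2608 bp. At the share of all named regions, 2.87%, only a few domains would fall in lists of this size, so a count of 0 is not far from that share. Of markers of other cells of the cortex the counts were 0 of 8 astrocyte markers, 0 of 11 oligodendrocyte lineage markers, 0 of 7 endothelial and mural markers and 0 of 2 microglia markers with a region. These lists are so short that at the share of all named regions, 2.87%, a count of 0 is also the nearest whole number for each, and the same holds for the nicotinic receptor subunits. The astrocyte gene Glul, glutamine synthetase, came close with 2989 bp. The marker lists do not hold all genes of these cells, and Foxc1, a forkhead factor of meninges and vessels, was a member with 3339 bp. Of the 6 nicotinic receptor subunit genes with a region 0 were broad, and the widest was Chrna7 with 1830 bp. Genes specific to other tissues had a region in 2 of 16 cases, the muscle factor Myod1 with 1085 bp and the heart factor Nkx2-5 with 927 bp. The lists together held 46 of the 327 domains, and 281 were in none of them.

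The level per kb also varied within the lists. Zeb2, a zinc finger repressor of neuronal development, had the widest domain among the transcription factors of cortical neurons, at 3995 bp, and averaged 61.5 adjusted reads per kb in postnatal nicotine samples and 66.6 in saccharin samples. Neurod2, a factor of excitatory neurons, averaged 55.6 in nicotine samples and 60.5 in saccharin samples. Cux1, of upper-layer neurons, and Nr2f1, which patterns cortical areas, averaged 133 and 131 adjusted reads per kb in postnatal nicotine samples, against 126 and 127.5 in saccharin samples.

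Activity-regulated domains had low levels, and all but Homer1 averaged less than 88.4 adjusted reads per kb in postnatal saccharin samples, the median of the members. Nr4a2 held 212.5 and 198.5 adjusted reads in postnatal nicotine samples, against 201.7 and 206.0 in saccharin samples, and after pre- and postnatal exposure 143, 105.5 and 145 in nicotine samples, against 135, 137 and 142 in saccharin samples. Its groups overlapped in both exposures. Per kb, Nr4a2 averaged 57.4 adjusted reads in postnatal nicotine samples and 57.0 in saccharin samples, Vgf, a secreted neuropeptide precursor, 40.1 in nicotine samples and 43.1 in saccharin samples, and Arc, an organiser of AMPA receptor trafficking, 39.2 in nicotine samples and 41.6 in saccharin samples. Homer1, a postsynaptic scaffold, averaged 113 adjusted reads per kb in nicotine samples and 108 in saccharin samples. Broad domains of chromatin regulators were denser. The 7 of them averaged 97.5 to 240.1 adjusted reads per kb in postnatal nicotine samples and 96.7 to 215 in saccharin samples, with Nsd1, a histone H3 lysine 36 methyltransferase, lowest and Dnmt3a, a DNA methyltransferase, highest. Kmt2c and Kmt2d, which belong to the methyltransferases of histone H3 lysine 4 themselves, averaged 183 and 131 adjusted reads per kb in postnatal nicotine samples, against 169 and 119.9 in saccharin samples. The channel genes ran from Cacna1e with 25.6 adjusted reads per kb in postnatal nicotine samples and 24.2 in saccharin samples to Kcnma1, a calcium-activated potassium channel, with 146 in nicotine samples and 142 in saccharin samples. Cacna1c, the pore of the L-type calcium channel, lay between them with 75.1 in nicotine samples and 82.9 in saccharin samples. Among postsynaptic genes the AMPA receptor subunit Gria2 averaged 31.7 adjusted reads per kb in nicotine samples and 33.4 in saccharin samples, Baiap2, an organiser of actin in spines, 77.3 in nicotine samples and 74.1 in saccharin samples, and the spine scaffold Ppp1r9b 153.5 in nicotine samples and 147.5 in saccharin samples. Of the kinase and phosphatase list, Ppp3ca, the catalytic subunit of calcineurin, averaged 160.5 adjusted reads per kb in nicotine samples and 154 in saccharin samples, and Cdk5r1, the neuronal activator of Cdk5, 77.9 in nicotine samples and 74.1 in saccharin samples. Of the RNA-binding list, Qk, a regulator of splicing, averaged 164.5 in nicotine samples and 156 in saccharin samples, and Cpeb3, a relative of Cpeb2, 93.4 in nicotine samples and 98.7 in saccharin samples.

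Promoters of member genes were rich in CpG, with a level of the mark that went with the number of CpG. RefSeq promoters of 300 bases, 250 before and 50 after the start, were matched for 262 of 320 members (81.9%) and for 8101 of 9953 genes with narrower regions only (81.4%), with chromosome 18 left out. The median promoter of a member held 28.0 CpG, against 21.0 at genes with narrower regions only and 4.0 at genes without a region. It had a G+C content of 66.7% and an observed over expected CpG ratio of 0.833, against 61.3% and 0.752 at the narrower ones. Genes whose regions spanned 2000 to under 3000 bp were close to the members, with 26.0 CpG, 65.9% and 0.821. Several annotated starts were listed for 27.1% of members, against 20.4% of genes with narrower regions only and 25.7% of those of 2000 to under 3000 bp. No test was made on these values.

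Across the 262 members, the CpG count and the log2 saccharin level per kb had a Pearson r of 0.461 in the postnatal and 0.450 in the pre- and postnatal table. The genes share libraries and CpG content goes with G+C content, which can also affect amplification and sequencing, and the part of that was not tested. In the whole 300-base window Cdk13 and Nr4a2 both had 52.0 CpG, yet Cdk13 averaged 265 and Nr4a2 57.0 adjusted reads per kb in postnatal saccharin samples. At the low end, 4 members had under 5 CpG: Runx2 with 2.0, Kcnf1 with 3.0 and Rbfox3 and Sp110 with 4.0 each. Rbfox3, which encodes the neuronal marker NeuN, averaged 117 adjusted reads per kb in postnatal nicotine samples and 111.5 in saccharin samples, above the median of the members, which was 88.4 in saccharin samples.

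**Figure D4:**
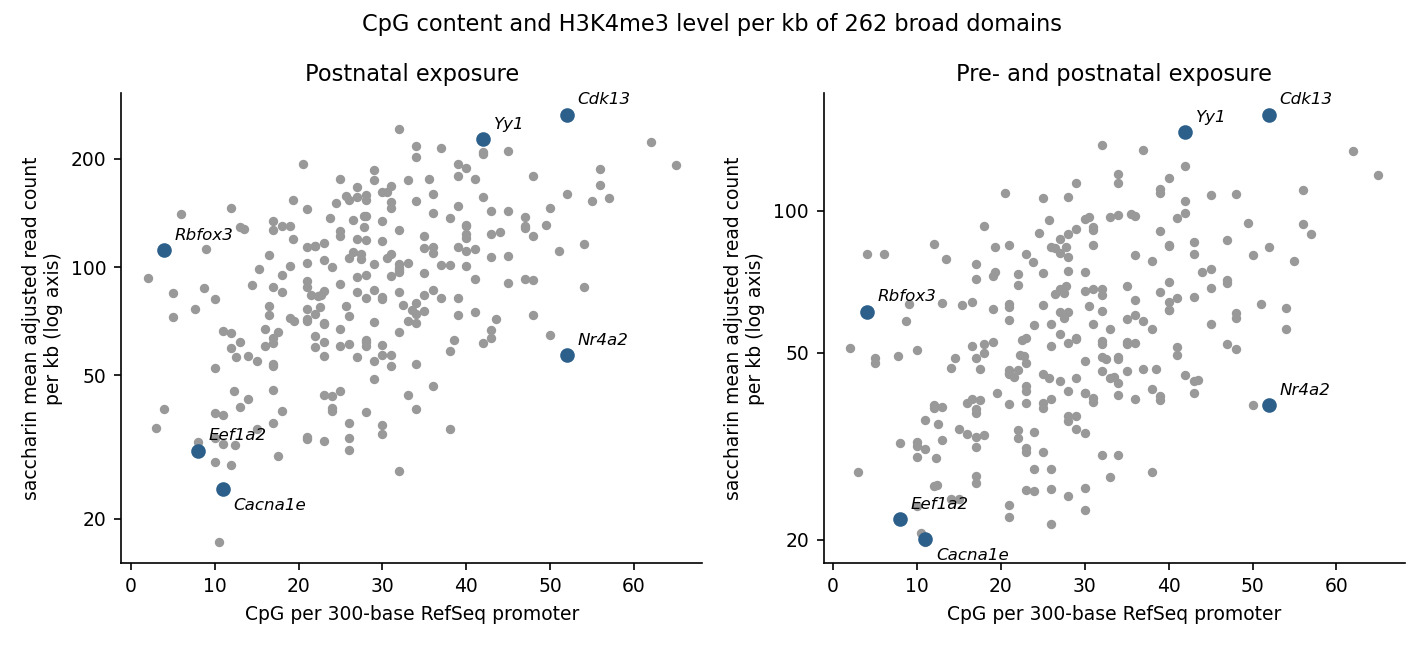
H3K4me3 level of 262 broad domains (mean adjusted read count per kb in saccharin samples, log axis) against the number of CpG in the gene's 300-base RefSeq promoter, 1 point per gene, with 6 named genes in blue. Levels go up with CpG count (r = 0.461 postnatal, 0.450 pre- and postnatal), with Nr4a2 low for its 52.0 CpG and Rbfox3 high for its 4.0.

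Postnatal nicotine was compared with postnatal saccharin to ask whether exposure after birth left a trace in the adult mark. No broad domain passed the test: with limma, 0 of 327 had a Benjamini-Hochberg adjusted p under 0.05 over all regions, where the background was 0.0% of 14873 regions tested. Among members the smallest adjusted p was 1.0. Counting unadjusted p-values under 0.05 gave 7 members (2.14%), against a background of 1.89% of all regions. That background is below the nominal 0.05, so the fit may be cautious. The lack of calls does not show that nicotine had no effect. Of these, 3 were higher in nicotine samples (0.917%, background 0.961%) and 4 lower (1.22%, background 0.928%). The samples of the groups did not overlap at 106 members (32.4%, background 29.1%), with nicotine above at 61 (18.7%, background 15.0%) and below at 45 (13.8%, against 2089 of all 14873 regions). Log2 differences ran from -0.61 to 0.31 with a median of 0.02 (all regions tested -0.0036), and 184 members were above 0 and 143 below. The median 95% confidence interval of a member reached 0.24 to each side on the log2 scale, which corresponds to 1.18-fold, against 0.39 over all regions. Only 1 member differed by over 1.5-fold (0.306%), against 2.96% of all regions. Named regions of 2000 to under 3000 bp were like the members, with 0.116% past 1.5-fold and a median interval of 0.25 to each side.

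The lowest p-values with nicotine above belonged to Ywhaz, the zeta form of the 14-3-3 signalling adaptors (chromosome 15, 36720814 to 36724648, mm9). It held 659 and 687 adjusted reads in nicotine samples, against 558 and 531 in saccharin samples, which did not overlap, a log2 difference of 0.31 ± 0.11 (SE; limma unadjusted p = 0.0125, adjusted p = 1.00). Atp2b1, a calcium pump of the plasma membrane, held 653 and 654 adjusted reads in nicotine samples, against 585 and 511 in saccharin samples (log2 difference 0.26 ± 0.11). Sinhcaf, a subunit of the Sin3 corepressor, held 239 and 245 adjusted reads in nicotine samples, against 182 and 220.5 in saccharin samples (log2 difference 0.27 ± 0.12, or 0.13 without saccharin samples 1 and 2). Neither gene's groups overlapped. With nicotine below, Cadm2, a synaptic adhesion molecule (chromosome 16, 67617751 to 67621885, mm9), held 181 and 173.5 adjusted reads in nicotine samples, against 222 and 233 in saccharin samples, a log2 difference of -0.36 ± 0.11 (SE; limma unadjusted p = 0.00573, adjusted p = 1.00). Eef1a2 held 78.4 and 48.6 adjusted reads in nicotine samples, against 83.5 and 107 in saccharin samples, a log2 difference of -0.61 ± 0.22, and it was the 1 member past 1.5-fold. It moved with single samples: it was -0.27 without nicotine samples 3 and 4, -0.43 without saccharin samples 3 and 4 and -0.95 without nicotine samples 1 and 2, and at -0.27 or -0.43 it was not past 1.5-fold. Hecw1 held 70.0 and 51.1 adjusted reads in nicotine samples, against 76.8 and 91.7 in saccharin samples (log2 difference -0.48 ± 0.21, or -0.26 without nicotine samples 3 and 4). Eif4a2, an RNA helicase of translation initiation, held 116.9 and 111 in nicotine samples, against 127 and 159 in saccharin samples (log2 difference -0.31 ± 0.14). At all 4 genes with nicotine below, both nicotine values were below both saccharin values. These genes, like Ywhaz, Atp2b1 and Sinhcaf, were chosen by their p, so the lack of overlap adds no support to it. Over all regions the groups did not overlap at 29.1%. Cadm2, Eef1a2, Hecw1 and Eif4a2 averaged under 61.6 adjusted reads per kb in saccharin samples, the lower end of the middle range of the members. Rnf103, a ubiquitin ligase of the endoplasmic reticulum, had a log2 difference of 0.20 ± 0.10, Pou3f1 0.21 ± 0.11 and Ctnna2, the neuronal alpha catenin, -0.30 ± 0.15. At none of these was the unadjusted limma p under 0.05.

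A pattern with level was seen in the postnatal table. When members were cut into 4 classes of about equal size by their level per kb, taken as the mean of both groups, the weakest 82 members had a median log2 difference of -0.09, with 20 members above 0 and 62 below. The strongest 82 had 0.07, with 69 above and 13 below, and the classes between had -0.01 and 0.04. The pattern was not particular to broad domains. Over all tested regions of the same ranges of level the medians were -0.07, -0.00, 0.04 and 0.08. Each nicotine sample showed it, with medians against the saccharin mean of -0.07 and -0.11 in the weakest and 0.06 and 0.08 in the strongest class. Differences of this size also separated samples of 1 group: the medians of the 2 saccharin samples stood 0.14 apart in the weakest and 0.15 apart in the strongest class on the log2 scale. By list, the 7 broad chromatin regulators were all above 0 after postnatal exposure (median 0.12, range 0.01 to 0.16), while after pre- and postnatal exposure 3 were above and 4 below (median -0.0035). Of the 8 activity-regulated genes 2 were above 0 and 6 below after postnatal exposure (median -0.08, range -0.20 to 0.08), and 5 above and 3 below after pre- and postnatal exposure (median 0.07). In the other 6 lists with broad domains the medians ran from -0.07 to 0.07 after postnatal and from -0.06 to 0.14 after pre- and postnatal exposure. No member of any list passed the test in either exposure. In the postnatal table all 7 chromatin regulators lie in the 2 classes of higher level, and the activity-regulated genes other than Homer1 in the 2 of lower level.

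**Figure D5:**
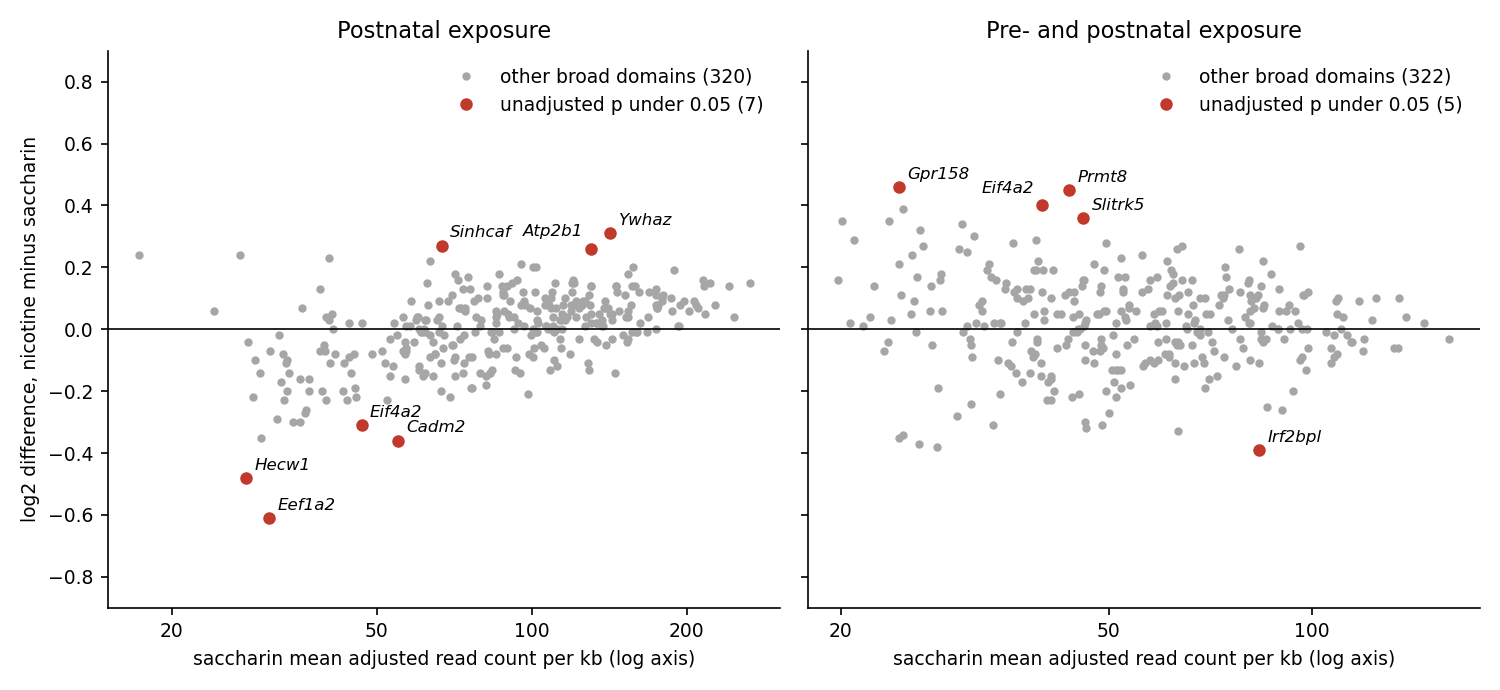
Log2 difference of H3K4me3 level, nicotine minus saccharin, of the 327 broad domains against their mean level in saccharin samples (adjusted read count per kb, log axis), for each exposure; red points have a limma unadjusted p under 0.05. In the postnatal panel weak domains lie mostly below 0 and strong ones above, from -0.61 at Eef1a2 to 0.31 at Ywhaz, and no domain of either panel passed the adjusted threshold.

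Pre- and postnatal nicotine was compared with its own saccharin group to ask the same of exposure before and after birth. With limma, 0 of 327 members had an adjusted p under 0.05, where the background was 0.0% of 14879 regions tested. Among members the smallest adjusted p was 0.987. Counting unadjusted p-values under 0.05 gave 5 members (1.53%), against a background of 3.59%. This background too is below the nominal 0.05, so the lack of calls does not show a lack of effect. Of these, 4 were higher in nicotine samples (1.22%, background 1.72%) and 1 lower (0.306%, background 1.87%). The samples did not overlap at 25 members (7.65%, background 8.95%), with nicotine above at 16 (4.89%, background 4.49%) and below at 9 (2.75%, background 4.46%). Log2 differences ran from -0.39 to 0.46 with a median of 0.02 (all regions tested 0.0027), 190 members were above 0 and 137 below, and 0 differed by over 1.5-fold, against 9.01% of all regions. The median 95% confidence interval reached 0.34 to each side on the log2 scale, or 1.26-fold, against 0.54 over all regions. Named regions of 2000 to under 3000 bp were again close to the members, with 0.732% past 1.5-fold and a median interval of 0.37 to each side. By class of level the medians were 0.02, 0.02, 0.03 and 0.02 from the weakest class to the strongest, but the nicotine samples ran in opposite directions. Against the saccharin mean, the medians of nicotine sample 1 were -0.11, 0.03, 0.15 and 0.15, those of nicotine sample 3 were 0.09, 0.02, -0.03 and -0.01, and those of nicotine sample 4 were 0.13, -0.03, -0.02 and -0.05.

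Prmt8, an arginine methyltransferase found mainly in brain, had the lowest p-value of this exposure (chromosome 6, 127716486 to 127719922, mm9). It held 180.0, 178 and 260.1 adjusted reads in nicotine samples, against 165, 163 and 121 in saccharin samples, which did not overlap, a log2 difference of 0.45 ± 0.18 (SE; limma unadjusted p = 0.0196, adjusted p = 0.987). Without nicotine sample 4 the difference was 0.27 and without saccharin sample 3 it was 0.30. Gpr158, an orphan receptor of neurons, held 89.0, 119 and 107 adjusted reads in nicotine samples, against 71.8, 85.1 and 70.6 in saccharin samples (log2 difference 0.46 ± 0.19). Slitrk5, a synaptic adhesion protein, held 171.5, 213 and 185.5 adjusted reads in nicotine samples, against 133, 154 and 156 in saccharin samples (log2 difference 0.36 ± 0.16). Both lay higher in all 3 nicotine samples than in any saccharin sample. Like Prmt8, these genes were chosen by their p, so the lack of overlap adds no support to it. Over all regions the groups did not overlap at 8.95%. Irf2bpl, a relative of Irf2bp2, held 338, 197 and 221 adjusted reads in nicotine samples, against 315, 313 and 335.5 in saccharin samples, a log2 difference of -0.39 ± 0.17, which was -0.62 without nicotine sample 1 and -0.23 without nicotine sample 3. Nicotine sample 1 lay above all saccharin samples at Irf2bpl while the other 2 lay far below them, so the groups overlapped. Phyhip, with a log2 difference of 0.39 ± 0.20, Foxc1, a forkhead factor of meninges and vessels, with -0.31 ± 0.16, Tnrc18 with -0.30 ± 0.16, Lmtk3, a neuronal kinase, with -0.32 ± 0.17 and Iqschfp with -0.33 ± 0.19 were the others among the 5 lowest p-values in each direction besides Eif4a2, and none of them had an unadjusted limma p under 0.05.

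Eif4a2 was the 1 gene with an unadjusted p under 0.05 in both exposures, in opposite directions. It held 118, 184 and 188.5 adjusted reads in pre- and postnatal nicotine samples, against 134, 112 and 119 in saccharin samples, a log2 difference of 0.40 ± 0.18, where the postnatal one was -0.31. Its effect differed between exposures by 0.71 ± 0.23 on the log2 scale, the largest such difference among members, which did not pass either (z test on the limma coefficients, adjusted p = 1.00). Of the 327 members 0 passed the test of a difference between exposures, against a background of 0.0% of 14871 regions, and 8 had an unadjusted p under 0.05 (2.45%), against a background of 3.65%. The exposures have separate saccharin samples. The values of the other genes named above, pre- and postnatal against postnatal, were 0.00 and 0.31 for Ywhaz, -0.21 and -0.36 for Cadm2, 0.04 and -0.61 for Eef1a2 and 0.45 and 0.01 for Prmt8.

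The share of all named signal that lay in broad domains differed little between samples. It was 7.22% and 7.29% in postnatal nicotine samples, against 7.32% and 7.13% in saccharin samples, which averages 7.25 ± 0.0552 percent in nicotine samples and 7.23 ± 0.132 percent in saccharin samples (SD, n = 2 each; two-sided exact permutation p = 1.0, where 4 samples allow none below 0.333). After pre- and postnatal exposure it was 7.28%, 6.84% and 6.95% in nicotine samples, against 7.09%, 7.18% and 6.97% in saccharin samples, which averages 7.02 ± 0.23 percent in nicotine samples and 7.08 ± 0.103 percent in saccharin samples (SD, n = 3 each; two-sided exact permutation p = 0.7, where 6 samples allow none below 0.1). The groups overlapped in both exposures. As a share of the signal of all regions the values were more spread, at 2.74% to 4.83% in the pre- and postnatal samples. There 15 regions of very high signal took 19.1%, 49.7% and 41.9% of the summed signal in nicotine samples 1, 3 and 4. In saccharin samples 1, 2 and 3 they took 39.9%, 28.8% and 33.1%. Nicotine sample 1, whose medians by class of level ran opposite to those of nicotine samples 3 and 4, was lowest. In postnatal nicotine libraries 1 to 4 they took 25.5%, 24.9%, 9.41% and 10.7%, and in postnatal saccharin libraries 8.3%, 8.65%, 17.8% and 19.5%. A link to the medians by class was not tested. None of those 15 regions is a broad domain and 1 carries a gene name. Without that region the share of named signal was 7.33%, 7.04% and 7.08% in pre- and postnatal nicotine samples, against 7.26%, 7.26% and 7.07% in saccharin samples.

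The spread between replicates was smaller at broad domains than over all narrower ones, and close to that of narrower regions with like signal. The median SD of log2 values within a group was 0.0674 in postnatal nicotine samples and 0.0898 in saccharin samples at broad domains, against 0.122 in nicotine and 0.129 in saccharin samples at narrower named regions. After pre- and postnatal exposure it was 0.20 in nicotine and 0.121 in saccharin samples at broad domains, against 0.299 in nicotine and 0.216 in saccharin samples at narrower ones. Among regions with 206 to 432 adjusted reads in the postnatal table the medians were 0.0656 in nicotine and 0.0774 in saccharin samples at broad domains, against 0.0662 in nicotine and 0.090 in saccharin samples at narrower ones. In the pre- and postnatal table, among regions with 132 to 249 adjusted reads, they were 0.191 in nicotine and 0.125 in saccharin samples at broad domains, against 0.187 in nicotine and 0.134 in saccharin samples at narrower ones. These spreads are descriptions with no test.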

How the data were processed

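H3K4me3 ChIP-seq was done on 14 libraries. Libraries were made with 18 cycles of PCR from fragments of 170 to 300 bp and read for 36 cycles, per the labels. Each deposited value is a signal: the reads of a region on build mm9 after adjustment with edgeR by the authors, per the submitters' processing notes. The 2 exposure tables were adjusted separately. Aligner, peak caller and versions: not given in the sources used here. Raw depth is unknown. Adjusted reads summed to 2004918 to 2489860 for a postnatal library and 1445810 to 2372855 for a pre- and postnatal one.

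Of 19203 rows, 4322 had no values and were left out. Values were not whole, so limma 3.58.1 with trend (R 4.3.3) was run on log2(value + 1), over all regions with at least 1 in as many samples as the smaller group, two-sided, with Benjamini-Hochberg adjustment and a threshold of 0.05. Fits were checked on simulated data. Replicate numbers did not pair the samples. Promoters were searched with Python 3.11.15 for fixed motifs, and figures drawn with matplotlib 3.10.9. Gene symbols were updated for 31 members from a RefSeq table of 321 matched. Members and lists were chosen with earlier results of these data known. Named genes were the 10 widest, the 10 strongest, the 10 weakest per kb, the 5 of lowest p per exposure and direction, the 3 widest of each list and the 3 on each side of the width threshold. Other genes of the text were chosen after their values were seen. Some genes that the rule took are not reported here. Pseudocount, filter, normalization, width threshold, replicate block and left-out replicates were varied.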

Additional observations from a re-analysis of the deposited data

How the results depend on the processing

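Of 312 alternative values 278 had the direction and the side of the threshold of the reported value or, for counts and values with no test, lay within 1.5 times or 1 SD of it. Genes were refitted for the 10 of lowest p of each exposure only. Their log2 differences kept their direction and did not pass the threshold in the alternatives run, but several moved by over 1.5 times when 1 sample was left out. The ranges were, after postnatal exposure, -0.95 to -0.27 for Eef1a2, -0.71 to -0.26 for Hecw1, -0.48 to -0.15 for Eif4a2, 0.13 to 0.41 for Sinhcaf, 0.16 to 0.35 for Atp2b1 and 0.12 to 0.30 for Pou3f1. For pre- and postnatal exposure they were -0.62 to -0.23 for Irf2bpl, -0.58 to -0.13 for Iqschfp, 0.22 to 0.50 for Phyhip, 0.27 to 0.54 for Prmt8 and 0.28 to 0.61 for Eif4a2. The number of members past the threshold stayed at 0 except when postnatal nicotine samples 3 and 4 were left out, with 1 call, Sp110 (log2 difference 0.79, limma adjusted p = 0.00809) among 31 of all 14881 regions, so leaving out a replicate gave 0 to 1. Over all regions, 7 passed without postnatal nicotine samples 1 and 2 and 17 without pre- and postnatal nicotine sample 1, with 0 members among them. The number of members at an unadjusted p under 0.05 was 4 to 40 after postnatal exposure: 40 with all 8 libraries as separate samples (12.2%, all regions 9.25%), 31 without saccharin samples 1 and 2 (9.48%, all regions 4.42%), 21 with quantile normalization (6.42%, all regions 2.41%) and 19 with crossed numbers (5.81%, all regions 7.15%). For pre- and postnatal exposure it was 1 to 35, with 35 without nicotine sample 1 (10.7%, all regions 11.4%) and 11 with quantile normalization (3.36%, all regions 3.62%). With a width of at least 3500 bp 3 and 1 of the fewer domains were counted, and with at least 2500 bp 20 and 19 of more. Quantile normalization moved the median log2 difference of the members to -0.05 and -0.02. With the replicate block, 0 members passed in either exposure, 4 and 1 had an unadjusted p under 0.05, and the pre- and postnatal median was 0.05. Same-numbered samples did not deviate together (r = -0.465 postnatal, -0.106 and -0.0982 pre- and postnatal). With postnatal numbers crossed, a term added after seeing the data, 9 regions and 0 members passed. The difference in share of signal, nicotine minus saccharin, was -0.227 percentage points after postnatal exposure with all regions as the denominator; leaving out a replicate gave -0.0677 to 0.119, with -0.0132 without nicotine samples 3 and 4. After pre- and postnatal exposure it was -0.187 to 0.0326. The ratio of broad to narrower regions was -0.01 on the log2 scale in both tables against regions of 2000 to under 3000 bp. Leaving out a replicate gave 0.61 to 0.63 in the pre- and postnatal table, where 5 samples allow no exact p under 0.0625. With 2 or 3 samples a group and unknown depth, small differences at weak domains could not be seen.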

Other observations

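The X chromosome held almost no broad domains. Of 363 named regions on X, 1 was broad (0.275%), the domain of 3134 bp at Bcor, a corepressor of BCL6, against 326 of 11025 on the autosomes (2.96%). Regions on X were also narrower and weaker in general: their median width was 1365 bp, against 1637 bp, and 12.1% of them reached 2000 bp, against 26.1%. The median level of named X regions was 25.3 to 28.0 adjusted reads per kb over the postnatal samples, against 55.0 to 58.8 on the autosomes, and 18.8 to 23.3 against 35.0 to 38.0 in the pre- and postnatal samples. The number of X chromosomes in these samples is not in the labels, and its part was not tested. Among autosomes the share of named regions that were broad was highest on chromosome 13 (5.49%) and lowest on chromosome 7 (1.93%).

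Broad domains stood more alone in the genome than narrower ones. Another region lay within 5000 bp of 20 members (6.12%), against 11.9% of narrower named regions and 6.97% of those of 2000 to under 3000 bp. The median gap to the nearest other region was 61844 bp, against 29458 bp and 43091 bp.

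Promoter motifs were searched on both strands of the 300-base RefSeq window, and matches are descriptions. A gene with several starts was counted when any of its windows held the motif. Members had several starts more often (27.1%, against 20.4% of genes with narrower regions only), which can raise their shares. The ETS letters CCGGAAG were in 9.54% of member promoters, against 18.4% of promoters of genes with narrower regions only, 16.2% of those with regions of 2000 to under 3000 bp and 9.93% of all promoters in the table. The GC box letters GGGCGG were in 80.5%, against 71.5%, 80.6% and 38.2%. The cAMP response element TGACGTCA was in 4.58%, against 3.63%, 3.42% and 2.03%, and its first letters TGACG, which lie within it, in 36.3%, against 35.4%, 38.5% and 23.0%. The E-box letters CACGTG were in 10.7%, against 11.9%, 13.0% and 8.09%, the CCAAT letters in 40.8%, against 42.8%, 40.4% and 41.1%, and the TATA letters TATAAA in 9.92%, against 8.63%, 7.19% and 15.7%.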
